A study of Mus musculus with 6 samples.

Results

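The contractile apparatus of smooth muscle was followed here through 10 genes, Acta2, Tagln, Cnn1, Cnn2, Myl9, Tpm1, Tpm2, Actn1, Csrp1 and Cald1. They were taken by symbol from the 18512 entries of the deposited count table, and all 10 were found in it. They were measured in NMuMG, a mouse mammary gland cell line of epithelial type, which was serum-starved and then given the vehicle DMSO, 5 ng/ml TGF-β, or the same TGF-β dose together with 50 uM 2APB. 2APB (2-aminoethoxydiphenyl borate) is used to block store-operated calcium entry, the inflow of calcium that follows emptying of the endoplasmic reticulum. The study describes a block of the calcium channels ORAI1 and ORAI2 by 2APB, but more calcium entry through ORAI3. Each group had 2 replicates, and the 6 RNA libraries were sequenced. Treatment lasted 24 h in the study's results, and its methods put 2APB ahead of TGF-β, an order that could not be settled here. All cells came from 1 line, and no library had 2APB without TGF-β. An effect of 2APB itself thus cannot be told apart from an effect on the response to TGF-β. The study's methods call the replicates biological without saying how they were grown, and p-values measure the spread between these libraries.

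In smooth muscle and in the stress fibres of other cells, myosin II pulls on actin filaments that are decorated with tropomyosin, calponin, caldesmon and transgelin and are cross-linked by alpha-actinin. TGF-β is known to raise many of these genes when epithelial cells turn towards a mesenchymal or myofibroblast state, and alpha-smooth-muscle actin, the product of Acta2, is the usual marker of that state. Many of them are targets of serum response factor (SRF), which binds a DNA element called the CArG box, and whose coactivators, the products of Mkl1 and Mkl2, are held back by unpolymerized actin.

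The regions around the starts of Acta2, Cnn1, Cnn2 and Myl9 are printed to show which of these members held the letters of the CArG box near the start. Each is 300 bases, from 250 before to 50 after the start, read from RefSeq (GRCm38.p6), and lies at chr19:34255324-34255623 on the minus strand (Acta2) and on the plus strand at chr9:22099003-22099302 (Cnn1), chr10:79988350-79988649 (Cnn2) and chr2:156775214-156775513 (Myl9). Capitals mark a CArG box (CC, 6 letters that are A or T, then GG) or a CArG-like box, in which 1 of the 6 middle letters is G or C. Both strands were searched.
Acta2: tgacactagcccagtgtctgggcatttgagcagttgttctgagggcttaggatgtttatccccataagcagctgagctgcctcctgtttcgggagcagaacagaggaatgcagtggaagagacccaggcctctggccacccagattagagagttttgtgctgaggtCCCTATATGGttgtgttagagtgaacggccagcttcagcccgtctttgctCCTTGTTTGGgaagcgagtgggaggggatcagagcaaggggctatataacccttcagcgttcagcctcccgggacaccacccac
Cnn1: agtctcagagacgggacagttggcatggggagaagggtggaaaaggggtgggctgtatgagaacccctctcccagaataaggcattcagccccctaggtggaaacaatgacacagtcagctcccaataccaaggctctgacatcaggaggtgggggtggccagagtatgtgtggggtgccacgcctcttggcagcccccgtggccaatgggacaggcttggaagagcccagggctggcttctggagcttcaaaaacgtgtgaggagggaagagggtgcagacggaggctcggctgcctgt
Cnn2: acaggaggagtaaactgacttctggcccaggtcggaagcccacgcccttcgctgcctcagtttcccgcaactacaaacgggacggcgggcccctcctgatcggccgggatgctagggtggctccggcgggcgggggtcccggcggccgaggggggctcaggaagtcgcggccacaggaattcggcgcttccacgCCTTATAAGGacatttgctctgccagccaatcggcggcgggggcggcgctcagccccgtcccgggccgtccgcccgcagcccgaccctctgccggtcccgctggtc
Myl9: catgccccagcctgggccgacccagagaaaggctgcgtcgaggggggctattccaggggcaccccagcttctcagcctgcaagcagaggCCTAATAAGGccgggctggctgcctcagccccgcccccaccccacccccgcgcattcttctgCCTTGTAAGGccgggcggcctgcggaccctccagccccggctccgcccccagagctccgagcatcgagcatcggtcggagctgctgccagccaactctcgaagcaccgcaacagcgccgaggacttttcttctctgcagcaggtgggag
Cnn2 held the CArG box CCTTATAAGG 56 bases before its start. Myl9 held CCTAATAAGG 161 bases before its start and the CArG-like CCTTGTAAGG at 99 bases. Acta2 held no box with all letters, but it held the CArG-like CCCTATATGG at 84 bases and CCTTGTTTGG at 34 bases before its start. The Cnn1 window held neither, and so did those of Tpm1, Tpm2, Actn1, Csrp1 and Cald1, the latter 2 with 2 starts each, so that 11 windows of 9 members were searched. Tagln was not matched. A CArG box was in 1.63% of the 32851 promoters of the same table and a CArG-like box in 8.5%. These are matches of letters, and neither a match nor its absence says whether SRF binds.

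Between 71840570 and 79473182 counts were assigned to genes per library, and every deposited value was even, so that 2 was the smallest count above 0. Normalized counts are these counts scaled to the mean library by edgeR's TMM factors, and SE is the standard error of a log2 fold change. Epithelial markers summed to 486196 to 517663 normalized counts with DMSO, 693852 to 812422 with TGF-β and 1304573 to 1372888 with TGF-β+2APB. Most of this sum was from the keratins Krt8 and Krt18, while Cldn7 and Esrp1 stayed at or below 5.9 normalized counts. The other two markers of the list were lower with TGF-β than with DMSO, Cdh1 (E-cadherin) by a log2 fold change of -0.78 (edgeR FDR 0.0055) and Epcam by -1.42 (edgeR FDR 0.0141). The summed markers of hepatocytes (Alb, Ttr, Apoa1, Fga, Fgb and Tat) were at 68342 to 75257 normalized counts with DMSO, 421 to 799 with TGF-β and 59.4 to 65.1 with TGF-β+2APB. Of the 6 markers of myoepithelial cells, the contractile cells of the mammary gland, Acta2 alone reached a mean of 20, and Krt5, Krt14 and Trp63 did not pass 5.9 in any library. Summed markers of vascular smooth muscle and pericytes were at 60.2 to 106 in all libraries, a range within which its members moved in opposite ways. Des had lower counts in the treated groups, as given with the smooth-muscle genes, while Notch3 went from 11.7 and 14.5 normalized counts with TGF-β to 59.4 and 55.2 in TGF-β+2APB (direct log2 2.12, edgeR FDR 0.015). Fibroblast markers, of which Lum was not in the table, summed to 141 to 163 with DMSO, 2334 to 2345 with TGF-β and 2456 to 3102 with TGF-β+2APB. Of the striated muscle list, Myod1, Myog, Ckm and Myh6 were not in the table, and its sum, nearly all Tnnt2, went from 452 to 504 with DMSO to 9454 to 9691 with TGF-β and 10650 to 11018 with TGF-β+2APB. Haematopoietic markers summed to 452 to 4226 in 5 libraries and to 31065 in TGF-β+2APB replicate 2, of which 28668 were Lyz2. Endothelial markers did not pass 53.3. The part of these marker genes in the results on the contractile genes was not tested, and in bulk RNA fewer cells of a type cannot be told apart from less RNA per cell.

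TGF-β raised all 8 of the contractile genes that could be tested, beside 21.8% of all tested genes higher. With 2APB added 7 of these 8 were still above DMSO, beside 25.6%. Acta2 had a mean high enough for the test only through the treated groups. Tagln rose 9.61-fold, Acta2 5.12-fold and Cnn2 3.84-fold against DMSO, and Cald1, Actn1, Tpm1, Cnn1 and Csrp1 rose 1.96-fold to 2.82-fold. Against TGF-β alone, TGF-β+2APB lowered Cnn1 3.27-fold and Csrp1 1.34-fold, and no member was called higher. Cald1 was 1.37-fold higher but was not called by edgeR. Tpm2, the tropomyosin typical of muscle, had 22 and 20 counts with DMSO and 2 in each TGF-β+2APB library. Its mean over all libraries was too low for the test. The 10 genes took 0.175% to 0.179% of all counts with DMSO, 0.423% to 0.462% with TGF-β and 0.431% to 0.465% with TGF-β+2APB.

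Of the 10 genes, 8 had a mean of at least 20 normalized counts over the 6 libraries and were tested. Myl9 and Tpm2 were not. Acta2, at a mean of 15.0 in DMSO, passed only through the treated groups, while Tpm2, at 21.1 in DMSO, was dropped through them. The filter thus kept a gene that rose and removed another that fell. The members were chosen with earlier results of these data known, so the counts below only describe them. With edgeR's quasi-likelihood F-test and a Benjamini-Hochberg FDR of 0.05 or less over 13353 genes, 8 members were higher with TGF-β than with DMSO and none was lower, where 21.8% of all tested genes were higher, 19.7% lower and 41.5% called either way. Their median log2 fold change was 1.45, and that of all tested genes -0.01. With TGF-β+2APB against DMSO, 7 members were higher and none lower, beside 25.6% of tested genes higher, 27.2% lower and 52.8% either way, and the median was 1.69. Compared directly with TGF-β, TGF-β+2APB had 2 members lower and none higher, beside 10.9% of tested genes lower, 6.58% higher and 17.5% either way. Read against these shares, 2 of 8 is no result about the members as a group. Their median log2 fold change there was 0.10. Of the members with a positive difference, Cald1 alone had an unadjusted edgeR p under 0.05 (0.0347) and was called higher by DESeq2. The direct calls depended on which libraries were fitted. With only the 4 libraries compared, neither Cnn1 (edgeR FDR 0.0509) nor Csrp1 (edgeR FDR 0.108) was called, beside 6.54% of all tested genes. DMSO libraries enter the direct comparison mainly through the shared estimate of the spread. Without either of them the log2 fold changes stayed at -1.71 (Cnn1) and -0.42 (Csrp1). With any 1 library left out they ranged from -1.90 to -1.50 for Cnn1 and from -0.53 to -0.31 for Csrp1. The comparisons with DMSO share the DMSO libraries, and the direct comparison shares its TGF-β libraries with the first.

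**Figure D1:**
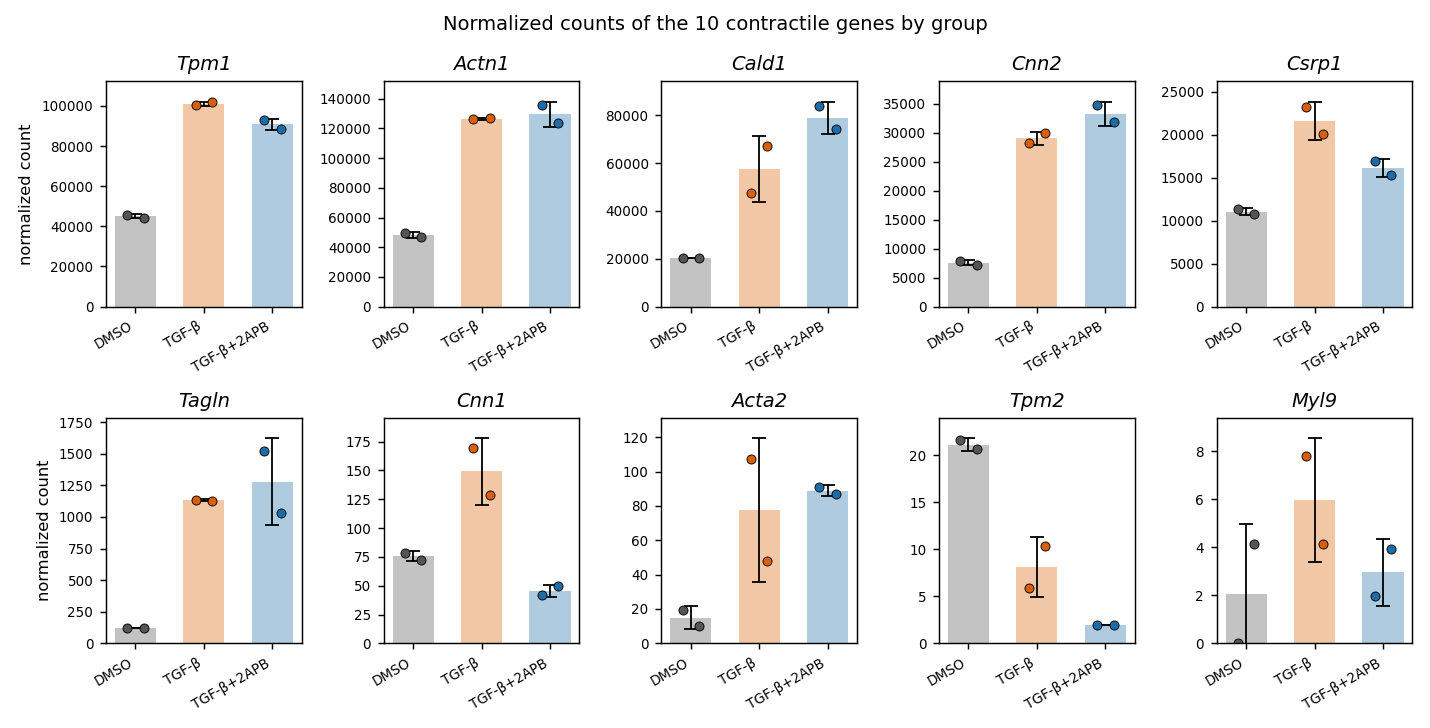
Normalized counts (linear axes from 0, each panel with its own scale) of the 10 genes in the 2 libraries of each group, with points for libraries, bars for the mean and error bars for the SD, those of Myl9 in DMSO drawn down to 0 only. In the panels of the 8 tested genes both TGF-β libraries stand above both DMSO libraries, and of these 8 Cnn1 alone has its TGF-β+2APB libraries below DMSO.

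Acta2 (chr19:34241090-34255590, minus strand, GRCm38 as for all positions here) encodes the actin of smooth-muscle filaments. It had 19.7 and 10.3 normalized counts with DMSO, 107 and 47.7 with TGF-β, then 91.1 and 86.8 with TGF-β+2APB. The DMSO libraries lay below all others, while the TGF-β libraries lay on both sides of the TGF-β+2APB libraries. The means were 15.0 ± 6.59 (SD, n = 2), 77.4 ± 42.0 and 88.9 ± 3.01. The log2 fold change was 2.36 (SE 0.532, edgeR FDR 0.0169) with TGF-β and 2.56 (SE 0.534, edgeR FDR 0.00969) with TGF-β+2APB against DMSO. Directly, TGF-β+2APB differed from TGF-β by 0.20 (SE 0.484, edgeR FDR 0.807), and by -0.27 without TGF-β replicate 2. The TGF-β call was lost without DMSO replicate 1 (log2 2.89, edgeR FDR 0.0515) and without DMSO replicate 2 (1.97, 0.104), and without TGF-β replicate 1 the log2 fold change was 1.67 (edgeR FDR 0.0353). The TGF-β+2APB call was lost without DMSO replicate 2 (2.17, 0.0658). Without TGF-β replicate 1 the direct difference was 0.90 and was not called (edgeR FDR 0.221). Raw counts were 10 to 110, and the coding sequences of actins are so alike that reads may be shared between them. How reads with several alignments were counted is not given in the sources used here.

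Tagln (chr9:45929619-45936058, minus strand) encodes transgelin or SM22, an actin-binding protein of the calponin family. Its normalized counts were 118 and 118 with DMSO, 1138 and 1129 with TGF-β, as well as 1522 and 1034 in TGF-β+2APB. All treated libraries were far above DMSO, and the TGF-β libraries lay between those of TGF-β+2APB. Tagln had the largest log2 fold changes of the 8 tested members in both comparisons with DMSO, 3.26 (SE 0.21, edgeR FDR 0.000229) and 3.44 (SE 0.211, edgeR FDR 0.000115). The direct difference of Tagln was 0.17 (SE 0.186, edgeR FDR 0.559), and it was -0.16 without TGF-β+2APB replicate 1. Pcsk7 overlaps Tagln on the other strand, and the strand setting of the counting is not given in the sources used here. Pcsk7 had 3296 to 3816 normalized counts in all libraries and was not called with TGF-β (log2 -0.12, edgeR FDR 0.19). Whether its reads entered the Tagln counts was not tested.

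Actn1 (chr12:80167547-80260371, minus strand) encodes alpha-actinin 1, which cross-links actin filaments in stress fibres and at adhesions. It held 49381 and 46721 normalized counts with DMSO, 126118 and 126978 with TGF-β, then 135619 and 123712 with TGF-β+2APB. Both treated groups lay above DMSO and overlapped each other. Against DMSO the log2 fold change was 1.40 (SE 0.0738, edgeR FDR 0.00013) with TGF-β and 1.43 (SE 0.0739, edgeR FDR 7.08e-05) with TGF-β+2APB. The direct difference of 0.04 (SE 0.0724, edgeR FDR 0.771) was the smallest in size among the 8 tested members, and its sign turned with library size scaling and without TGF-β+2APB replicate 1. Predicted genes overlap Actn1 on both strands (Gm47765, Gm47766 and Gm47767).

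Csrp1 (chr1:135720061-135752232, plus strand) encodes a LIM-domain protein that binds alpha-actinin and zyxin on actin filaments. Normalized counts were 11333 and 10743 with DMSO, 23207 and 20034 with TGF-β, as well as 16888 and 15350 in TGF-β+2APB. The 3 groups did not overlap, and TGF-β+2APB lay between the other two. TGF-β raised Csrp1 by 0.97 (SE 0.1, edgeR FDR 0.0011) on the log2 scale, and with TGF-β+2APB it was 0.55 above DMSO (SE 0.0997, edgeR FDR 0.00585). When 2APB was added it fell by 0.42 (SE 0.0995, edgeR FDR 0.0397). That fall was called in 9 of 15 alternative analyses, and leaving out DMSO replicate 1, DMSO replicate 2, TGF-β+2APB replicate 1 or TGF-β+2APB replicate 2 gave edgeR FDR values of 0.111, 0.112, 0.114 and 0.221. The rise against DMSO with TGF-β+2APB had an edgeR FDR of 0.0581 without DMSO replicate 2 and 0.0538 without TGF-β+2APB replicate 1.

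Cnn1 and Cnn2 encode calponins, which bind actin and hold back its use by myosin. Cnn1 is the form of smooth muscle and Cnn2 is found widely. Cnn2 (chr10:79988584-79996062, plus strand), whose promoter window held the CArG box shown above, had 7911 and 7260 normalized counts with DMSO, 28307 and 29899 with TGF-β, then 34795 and 31812 with TGF-β+2APB. The 3 groups did not overlap. It rose by 1.94 (SE 0.0864, edgeR FDR 8.42e-05) with TGF-β and was 2.13 above DMSO (SE 0.0869, edgeR FDR 3.93e-05) with TGF-β+2APB. The direct difference was 0.19 (SE 0.0833, edgeR FDR 0.168).

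Cnn1 (chr9:22099216-22109630, plus strand) went the other way once 2APB was added. It had 78.6 and 72.3 normalized counts with DMSO, 170 and 129 with TGF-β, as well as 41.6 and 49.3 in TGF-β+2APB. No 2 groups overlapped, and both TGF-β+2APB libraries were below both DMSO libraries. The means were 75.5 ± 4.46 (SD, n = 2), 149 ± 28.9 and 45.5 ± 5.48. The rise with TGF-β was 0.98 (SE 0.273, edgeR FDR 0.0339), and the direct change on adding 2APB was -1.71 (SE 0.28, edgeR FDR 0.0154). Between TGF-β+2APB and DMSO the log2 fold change was -0.73 (SE 0.278, edgeR FDR 0.0728), which was not called in any of 15 alternatives. The rise was not called without DMSO replicate 1 (edgeR FDR 0.15), without DMSO replicate 2 (0.182) or without TGF-β replicate 1 (0.101). The fall kept a log2 fold change of -1.90 to -1.50 with any 1 library left out, and its edgeR FDR was 0.0549 without DMSO replicate 1, 0.0552 without DMSO replicate 2 and 0.0549 without TGF-β+2APB replicate 1. Raw counts of Cnn1 ran from 42 to 174.

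Tpm1 and Tpm2 encode tropomyosins, rods that lie along the actin filament and control the access of myosin. Tpm1 (chr9:67022590-67049406, minus strand) had 45906 and 44359 normalized counts with DMSO, 100444 and 101899 with TGF-β, then 92857 and 88676 with TGF-β+2APB. The TGF-β libraries were the highest and the groups did not overlap. It rose by 1.16 (SE 0.0628, edgeR FDR 0.000134) with TGF-β and by 1.01 (SE 0.0626, edgeR FDR 0.000119) with TGF-β+2APB against DMSO, and the direct difference was -0.16 (SE 0.062, edgeR FDR 0.144). Tpm2 (chr4:43514711-43523765, minus strand) went against Tpm1 at very low counts. It had 22 and 20 counts with DMSO, 6 and 10 with TGF-β, as well as 2 and 2 in TGF-β+2APB. Scaled by the TMM-adjusted library sizes, the ratio of its summed DMSO counts to those with TGF-β was 2.63 (95% exact Poisson interval 1.12 to 6.87, on counts divided by 2), and to those with TGF-β+2APB 10.7 (2.62 to 94.2), intervals which cover counting error only. When all 18512 entries were fitted without the filter, Tpm2 was at -3.34 (SE 0.632, edgeR FDR 0.00914) for TGF-β+2APB against DMSO on the log2 scale and was not called with TGF-β against DMSO (-1.37, 0.122) or directly (-1.97, 0.13).

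Cald1 (chr6:34598500-34775473, plus strand) encodes caldesmon, a calmodulin-regulated protein of the thin filament that inhibits myosin. It had 20325 and 20367 normalized counts with DMSO, 47658 and 67265 with TGF-β, then 83730 and 74285 with TGF-β+2APB. The groups did not overlap and lay in that order, with the TGF-β libraries far apart. The log2 fold change was 1.50 (SE 0.17, edgeR FDR 0.00151) with TGF-β and 1.96 (SE 0.172, edgeR FDR 0.000381) with TGF-β+2APB against DMSO. The direct difference of 0.46 (SE 0.166, edgeR FDR 0.118) was not called. It was called by DESeq2 (adjusted p 0.0438), without TGF-β replicate 2 (log2 0.73, edgeR FDR 0.00385) and with a correction for GC content (0.53, edgeR FDR 0.0335). At 45.0%, the longest transcript of Cald1 had the lowest GC content of the 10 members, and the log2 difference between the TGF-β replicates had a Spearman rho of -0.55 with GC content over 12718 genes, a description since genes are no replicates. Npn2 and predicted genes lie on the other strand within Cald1.

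Myl9 (chr2:156775420-156781658, plus strand) encodes the regulatory myosin light chain of smooth muscle, whose phosphorylation by myosin light-chain kinase switches contraction on. Its promoter window held the CArG box shown above. It was nearly silent in every group, with 0 and 4 counts with DMSO, 8 and 4 with TGF-β, as well as 2 and 4 in TGF-β+2APB. At this depth no difference was detectable. In the fit without a filter its edgeR FDR values were 0.481, 0.807 and 0.671 for TGF-β against DMSO, TGF-β+2APB against DMSO and the direct comparison.

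**Figure D2:**
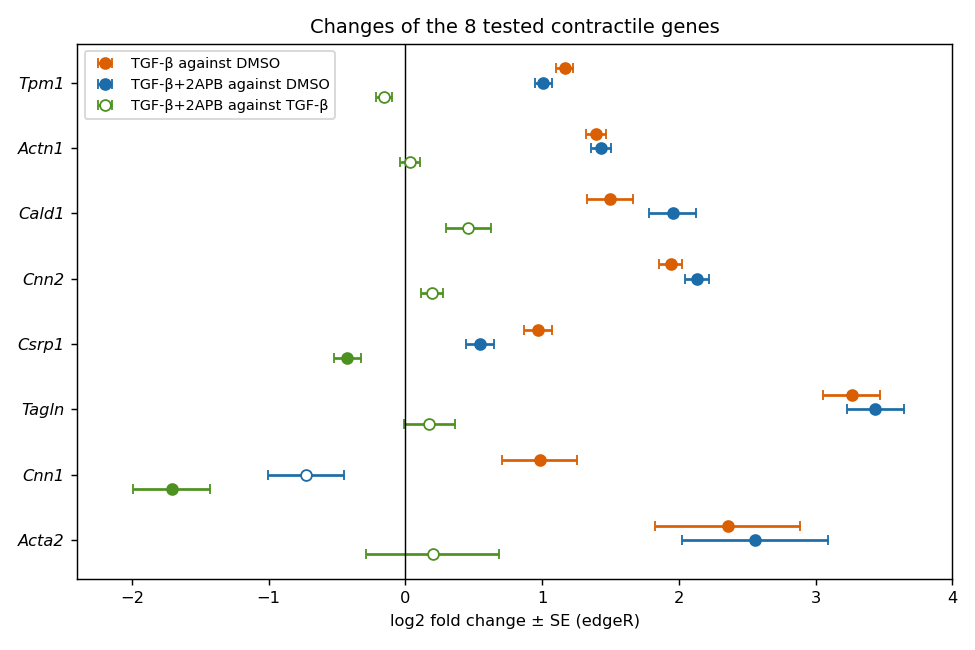
Fitted log2 fold changes (horizontal axis) with their SE for the 8 tested members in the 3 comparisons, filled where the edgeR FDR was 0.05 or less and open where it was not. All 8 changes from DMSO to TGF-β lie right of 0, and the filled points left of 0 are the direct changes of Cnn1 (-1.71) and Csrp1 (-0.42).

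Levels were compared between the members as CPM (counts scaled to a library of fixed size) per kilobase of the longest transcript. With DMSO the order was Tpm1 (204 ± 4.95, SD, n = 2), Actn1 (168 ± 6.59), Csrp1 (79.0 ± 2.99), Cald1 (55.7 ± 0.0804) and Cnn2 (40.3 ± 2.45), and then, at under 1, Tagln (0.967), Cnn1 (0.415), Tpm2 (0.127), Acta2 (0.0964) and Myl9 (0.0240). Of these neighbours, only Tpm2 and Acta2 overlapped. The members described here as muscle forms (Acta2, Cnn1, Tpm2 and Myl9) thus stood at the low end, together with Tagln. Counts per gene do not tell different transcripts of a gene apart. With TGF-β, Tpm1 (458 ± 4.66) and Actn1 (443 ± 2.13) stayed first, while Cald1 (157 ± 38.0), Cnn2 (155 ± 5.99) and Csrp1 (155 ± 16.1) could not be ordered within their spread. Tagln reached 9.30 ± 0.0504, still far below them. With TGF-β+2APB, Actn1 (454 ± 29.5) stood above Tpm1 (411 ± 13.4), followed by Cald1 (216 ± 18.3), Cnn2 (177 ± 11.2), Csrp1 (115 ± 7.78) and Tagln (10.5 ± 2.83), and Acta2 (0.572 ± 0.0194) now stood above Cnn1 (0.250 ± 0.0301).

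Within their families, the shares of the members were taken as percentages of the summed CPM per kilobase. Acta2 was at most 0.0148% of the actins, where Actb and Actg1, the cytoplasmic actins, took the rest but for Acta1 and traces. Actn1 went from 47.2% and 46.9% of the alpha-actinins with DMSO to 70.2% and 72.5% with TGF-β, then to 74.4% and 73.0% with TGF-β+2APB. Actn4 was not called with TGF-β (log2 -0.09, edgeR FDR 0.376). With TGF-β+2APB against DMSO it was called lower (log2 -0.23, edgeR FDR 0.0487). The alpha-actinin pool so passed from near parity of Actn1 and Actn4 to mostly Actn1. Tpm1 went from 28.6% and 28.3% of the tropomyosins to 35.8% and 36.6% with TGF-β, and stood at 33.6% and 34.1% with TGF-β+2APB. Csrp1 took 71.5% and 73.1% of its family with DMSO, 84.2% and 83.0% with TGF-β, then 75.9% and 78.4% with TGF-β+2APB. Cnn2 shared the calponins with Cnn3 at 46.3% to 53.8% in all libraries. Cnn1 went from 0.485% and 0.476% of the calponins with DMSO to 0.315% and 0.239% with TGF-β, although its own level rose, and to 0.0655% and 0.0860% with TGF-β+2APB. Tagln went from 0.315% and 0.323% of the transgelins to 1.63% and 1.94%, and then stood at 2.88% and 1.95%. Myl9 did not pass 0.0222% of the regulatory light chains, and Myl12a, a non-muscle form, went from 44.4% and 44.6% with DMSO to 66.5% and 67.4% with TGF-β, then to 73.1% and 71.4% with TGF-β+2APB.

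**Figure D3:**
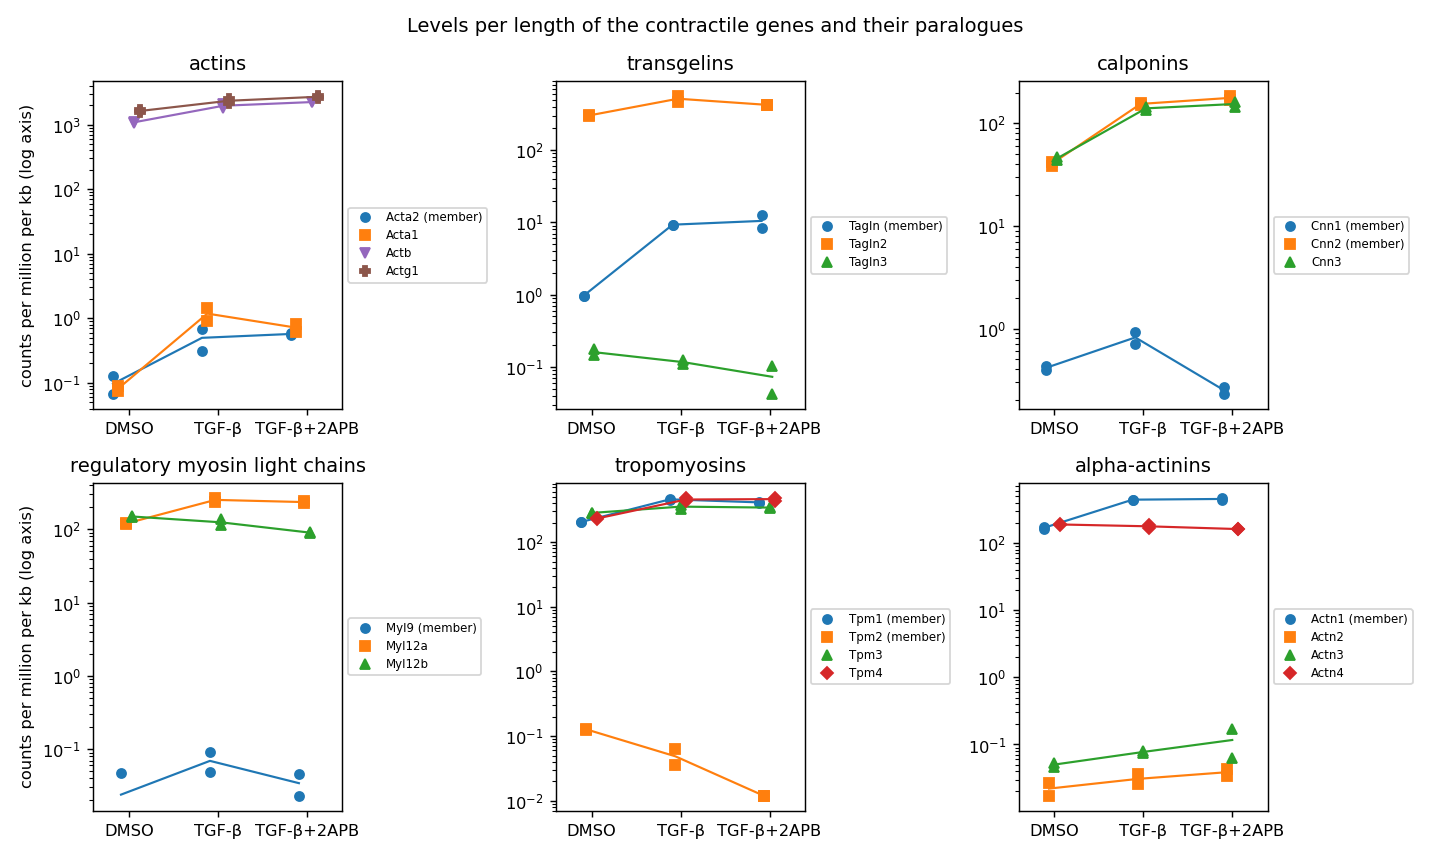
CPM per kilobase of the longest transcript (log axes) in 6 families that hold 8 of the members, with a point for each library and lines through the group means. Values of 0 are not drawn, namely Myl9 in DMSO replicate 1, and Actc1 and Actg2 are left out because they had libraries at 0. Acta2, Tagln, Cnn1, Myl9 and Tpm2 lie at least 10-fold below the most abundant gene of their family, and Actn1 leaves Actn4 behind with TGF-β.

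Of 18 paralogues of the members, 12 were tested. With TGF-β against DMSO 8 were higher and none lower, where 21.8% of all tested genes were higher and 19.7% lower. Cnn3 rose by 1.62 (SE 0.0869, edgeR FDR 0.000131). Acta1, the actin of skeletal muscle, rose by 3.83 (SE 0.413, edgeR FDR 0.00126) from 9.83 and 8.26 to 162 and 99.6 normalized counts. Like Acta2, it passed the filter only through the treated groups. The cytoplasmic actins Actb and Actg1 rose by 0.85 (edgeR FDR 0.00108) and 0.53 (edgeR FDR 0.00799), and Tpm4, Tagln2, Myl12a and Tpm3 were also higher. With TGF-β+2APB against DMSO 8 were higher and 2 lower, beside 25.6% of all tested genes higher and 27.2% lower. Against TGF-β alone 17.5% of all tested genes were called, so that 1 paralogue called is no result about the list. Myl12b was lower (log2 -0.47, edgeR FDR 0.0344) and none was higher. That call was lost without either DMSO library or either TGF-β+2APB library, and 4 and 6 calls were made without TGF-β replicate 1 and without TGF-β replicate 2.

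Myosin II and its regulators did not move as 1 group. Of 11 tested, 2 were higher and 2 lower with TGF-β, where 41.5% of all tested genes were called, and 2 were lower in the direct comparison, where 17.5% were called, so that neither count is a result about the list. With TGF-β+2APB against DMSO 2 were higher and 2 lower, beside 52.8%. Myh9, the main non-muscle heavy chain, had 130215 and 129262 normalized counts with DMSO, 325538 and 295978 with TGF-β, as well as 325981 and 312239 in TGF-β+2APB, a rise of 1.26 with TGF-β (SE 0.0707, edgeR FDR 0.000145). Myh10, another non-muscle heavy chain, rose by 1.57 (SE 0.347, edgeR FDR 0.0157) at low counts, 24 and 40 with DMSO and 98 and 94 with TGF-β. Mylk, the calcium- and calmodulin-activated kinase of the regulatory light chain, had 14458 and 14768 normalized counts with DMSO, 4393 and 4250 with TGF-β, then 1022 and 1657 with TGF-β+2APB. It fell by 1.76 with TGF-β (SE 0.218, edgeR FDR 0.00206) and by a further 1.69 with 2APB (SE 0.22, edgeR FDR 0.00852), and the groups did not overlap. Myh14 fell by 2.30 with TGF-β (SE 0.127, edgeR FDR 0.000141) and fell by 0.65 in the direct comparison (SE 0.126, edgeR FDR 0.0229). None of the list was called higher in that comparison, where Myh10 differed by 0.82 (SE 0.331, edgeR FDR 0.15). Rock1 and Rock2, kinases that sustain myosin activity, differed between the TGF-β replicates (3189 against 9143 and 11610 against 29656 normalized counts) and were not called. Without TGF-β replicate 2 the calls in this list became 8, 7 and 7 in the comparisons of TGF-β with DMSO, TGF-β+2APB with DMSO and TGF-β+2APB with TGF-β. Leaving out any 1 of the DMSO or TGF-β+2APB libraries left 1 call in the direct comparison.

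SRF and cofactors were read from 5 tested genes. With TGF-β, 2 were higher and 1 lower, and when 2APB was present 3 were higher than in DMSO and 1 lower. Of all tested genes, 41.5% were called with TGF-β, 52.8% with TGF-β+2APB against DMSO and 17.5% directly. Counts over 5 genes are no result about the list. Srf itself changed by 0.25 with TGF-β (SE 0.104, edgeR FDR 0.112). Mkl1, which encodes an actin-regulated coactivator of SRF, rose by 0.87 (SE 0.103, edgeR FDR 0.00174), and its relative Mkl2 fell by 0.27 (SE 0.0775, edgeR FDR 0.0385). The call of Mkl2 was lost with the replicate block, the GC correction or only 4 libraries, and without any 1 of the DMSO or TGF-β+2APB libraries. Vgll3, known as a cofactor of TEAD factors, went from 252 and 266 normalized counts with DMSO to 2094 and 2781 with TGF-β, then to 4704 and 3717 with TGF-β+2APB. It rose by 3.23 with TGF-β (SE 0.193, edgeR FDR 0.000176) and by a further 0.79 with 2APB (SE 0.173, edgeR FDR 0.0325), the 1 call of the list in the direct comparison. That call was lost without DMSO replicate 1, DMSO replicate 2 or TGF-β+2APB replicate 1, and 3 calls were made without TGF-β replicate 1. The 4 calls of TGF-β+2APB against DMSO became 2 without any 1 of the DMSO or TGF-β+2APB libraries. Myocd, the smooth-muscle coactivator of SRF, did not pass 2 counts in any library.

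Other genes of the differentiated smooth-muscle cell were mostly low. Of the 9 that were present, 4 were tested. Over all tested genes 41.5% were called with TGF-β, 52.8% with TGF-β+2APB against DMSO and 17.5% directly, and counts over 4 genes are no result about the list. With TGF-β, Smtn (smoothelin) rose by 0.79 (SE 0.069, edgeR FDR 0.00063) and Synm (synemin, an intermediate filament protein) fell by 0.61 (SE 0.121, edgeR FDR 0.0109). Des, the muscle intermediate filament desmin, had 78.6 and 76.4 normalized counts with DMSO, 35.1 and 16.6 with TGF-β, as well as 9.90 and 21.7 in TGF-β+2APB, and was called lower in the last group against DMSO (log2 -2.29, edgeR FDR 0.0152). Myh11, the smooth-muscle myosin heavy chain, did not pass 12 counts. No gene of the list was called between TGF-β+2APB and TGF-β by edgeR or by DESeq2, and 0 of the 4 had an unadjusted edgeR p under 0.05 (range 0.194 to 0.599). Without DMSO replicate 1 or DMSO replicate 2, 1 gene was called against DMSO in place of 2 (TGF-β) and 3 (TGF-β+2APB).

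Of the focal adhesion and stress fibre genes listed, most were higher with TGF-β. All 12 were tested, and with TGF-β 8 were higher and 3 lower, beside 21.8% of all tested genes higher and 19.7% lower. When 2APB was present 8 were higher than in DMSO and 2 lower, beside 25.6% higher and 27.2% lower. Pdlim7, Flna (filamin A, an actin cross-linker) and Zyx (zyxin, a partner of Csrp1) rose by 1.49 (SE 0.0762, edgeR FDR 0.000118), 1.46 (SE 0.0726, edgeR FDR 0.000109) and 1.41 (SE 0.0979, edgeR FDR 0.000283) with TGF-β. Lima1, an actin-bundling protein of epithelial cells, fell by 1.21 (SE 0.135, edgeR FDR 0.00141), and Pxn fell by 0.32 (edgeR FDR 0.0454) and Pdlim5 fell by 0.28 (edgeR FDR 0.0445). The 3 lower calls of the list became 1 without the filter on the mean count, with only 4 libraries, and without any 1 of the DMSO or TGF-β+2APB libraries. Against TGF-β alone, Palld (palladin) was higher by 0.55 (SE 0.104, edgeR FDR 0.0216) and Vcl (vinculin) fell by 0.31 (SE 0.0723, edgeR FDR 0.0378). Beside 17.5% of all tested genes called there, these 2 calls are no result about the list. Without either DMSO library the 11 calls with TGF-β became 7, and the 10 with TGF-β+2APB became 6, as they did without TGF-β+2APB replicate 1. The 2 direct calls became 0 without DMSO replicate 1, DMSO replicate 2 or TGF-β+2APB replicate 1, 1 without TGF-β+2APB replicate 2, and 6 without TGF-β replicate 1 or TGF-β replicate 2.

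**Figure D4:**
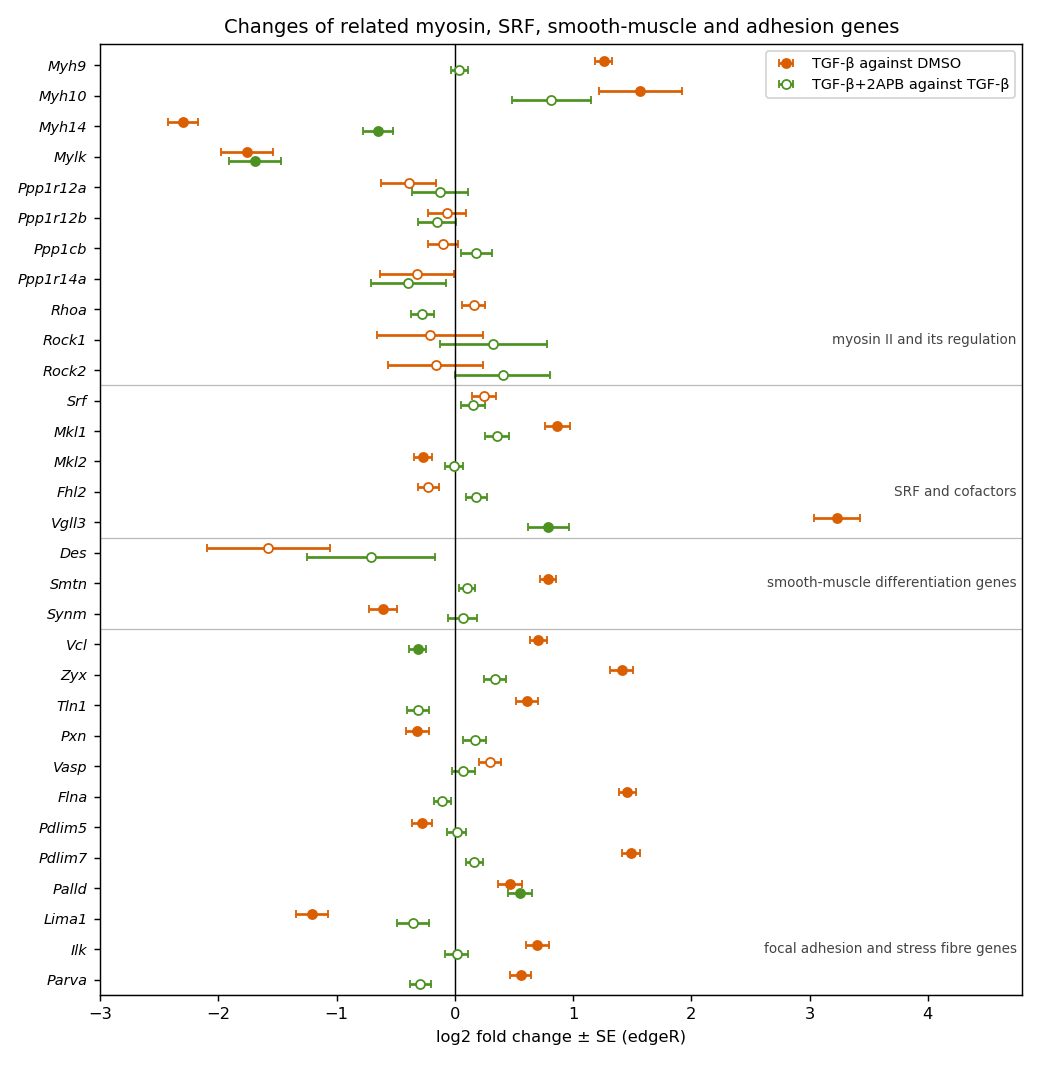
Fitted log2 fold changes (horizontal axis) with their SE for the tested genes of the myosin II, SRF, smooth-muscle and focal adhesion lists, for TGF-β against DMSO and for the direct comparison, filled where the edgeR FDR was 0.05 or less. Ppp1r14a, which is in 2 lists, is drawn once, and Myh9, Flna, Pdlim7 and Zyx lie right of 1 for TGF-β against DMSO but not in the direct comparison, while Mylk and Myh14 lie left of 0 in both.

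The genes most like Acta2 were found by Euclidean distance between log2 CPM over the 6 libraries, each gene centred on its mean, among 13331 tested genes. The nearest were Rgma (distance 0.576), Nmnat2 (0.653), Eng (0.708), Nim1k (0.738) and Serpinb1b (0.767). Rgma had 35.4 and 14.5 normalized counts with DMSO, 129 and 95.5 with TGF-β, then 139 and 132 with TGF-β+2APB. All 5 shared with Acta2 a lower count in replicate 2 than in replicate 1 of both DMSO and TGF-β, and none was in the contractile lists. Differences between replicates enter the distance, so this sharing follows from how the 5 genes were picked. Of the members, Cnn2 was nearest at 1.1 (rank 75), then Tagln (1.52), Actn1 (1.53), Cald1 (1.54), Tpm1 (1.88) and Csrp1 (2.21), and Cnn1 was far away at 3.39 (rank 8995).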

How the data were processed

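RNA of NMuMG cells in 3 groups of 2 libraries was selected with oligo-dT and sequenced as single-end reads. The authors aligned the reads with TopHat2 2.0.13 (mm10 in the submitters' processing notes, a human build in the methods, while the symbols are mouse symbols). The deposited values are featureCounts counts per gene, not normalized between libraries. Every value was even for a reason not known here, so a value may not equal a number of reads. The annotation, strand setting and handling of reads with several alignments are not given in the sources used here. Spreadsheet dates had replaced 25 of 18512 names.

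The tests used edgeR 4.0.16 in R 4.3.3. After TMM scaling, genes below a mean of 20 normalized counts were removed, and 1 quasi-likelihood model took in all 3 groups with no covariate. F-test p-values were adjusted by Benjamini-Hochberg over 13353 genes, with calls at an FDR of 0.05 or less. The common biological coefficient of variation was 17.4%. SE was obtained as the absolute log2 fold change over the root of F. Positions and transcript lengths came from GENCODE M21 (GRCm38), matched by symbol for 94.8% of entries, and promoters from RefSeq. Named genes were the 10 members, the lists described above, the marker lists and the 5 genes nearest to Acta2 (prior count of 1 before log2). The members and lists were chosen with earlier results of these data known. Alternatives were DESeq2 1.42.0, other scalings, no filter, a replicate block, fits of 4 libraries, halved counts and each library left out. A crossed block and a GC correction (loess, span 0.5) were added after the data had been seen. The procedure was tested on simulated data. Plots were drawn with matplotlib 3.10.9, and tables made with pandas 2.3.3 under Python 3.11.15.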

Additional observations from a re-analysis of the deposited data

How the results depend on the processing

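Of 360 single-gene values under alternatives, 334 kept their direction and side of the threshold. The signs that turned were all in the direct comparison, for Acta2 (-0.268 to 0.898 with 1 library left out), Tagln (-0.162 to 0.423) and Actn1 (-0.0626 to 0.0972, and -0.000223 with library size scaling), and the cause was not tested. The 2 direct calls of members became 1 without the filter on the mean count and 0 with only the 4 libraries compared, and ranged from 0 to 3 with 1 library left out. DESeq2 and the GC correction gave 3, each with Cald1 as the added call. With 1 library left out, the calls against DMSO ranged from 6 to 8 for TGF-β and from 5 to 7 for TGF-β+2APB. Over all tested genes the direct comparison called 860 genes with 4 libraries, 3646 by DESeq2, 1342 with the replicate block and 834 to 5405 with 1 library left out, in place of 2334. TGF-β against DMSO went from 5548 to as low as 2753 and TGF-β+2APB against DMSO from 7044 to as low as 4355, both without DMSO replicate 1. The log2 differences between replicates correlated between groups at 0.14 (DMSO and TGF-β), -0.43 (DMSO and TGF-β+2APB) and -0.26 (TGF-β and TGF-β+2APB), so the replicate numbers were not taken as pairs. With the replicate block the members gave 7, 2 and 7 calls for TGF-β against DMSO, the direct comparison and TGF-β+2APB against DMSO, and the call lost was the rise of Cnn1 (edgeR FDR 0.072). A block with the TGF-β+2APB numbers exchanged gave 8, 2 and 7. Distances to Acta2 do not change with the scaling by construction. Depth limited Myl9, Tpm2 and Acta2.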

Other observations

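Synpo2, which encodes an actin-binding protein of the smooth-muscle list, was too low for the test. Its DMSO libraries had 26 and 28 counts, the TGF-β libraries 10 in each, and those of TGF-β+2APB 2 and 0. Lmod1, a leiomodin of the same list, was also too low. It had 0 and 4 counts in DMSO, 10 and 16 in TGF-β, and 18 and 16 in TGF-β+2APB.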
